A study of Mus musculus with 14 samples.

Results

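The genes described here are 35 genes of glucose uptake, glycolysis, lactate handling, the pentose phosphate pathway and glycogen turnover, chosen by name from 35275 genes in the deposited table. They were read in brown adipose tissue of C57BL/6 mice that carry a floxed Lrpprc gene. Lrpprc encodes a protein that stabilises mitochondrial messenger RNAs. Control mice were LrpprcFF and knockout mice were LrpprcFF Ucp1-Cre, in which the Ucp1 promoter drives Cre in brown adipocytes, so other cells of the tissue keep the gene. All groups, controls included, carry the floxed allele, and mice were 8 weeks old. There were 4 controls and 4 knockouts housed at room temperature (22 °C) and 3 controls and 3 knockouts housed at thermoneutrality (30 °C). The labels name the cells brown adipocytes, but the extraction was from homogenised tissue. Of the 35 genes, 4 are skeletal muscle isoforms (Pfkm, Pgam2, Eno3 and Pygm) and are described apart, because muscle RNA varied between the dissected samples. The other 31 are counted together.

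Brown adipose tissue burns fat and glucose to make heat, and cold housing raises its glucose uptake. Glucose enters through the transporters Glut1 (Slc2a1) and the insulin-responsive Glut4 (Slc2a4) and is trapped by hexokinase. Phosphofructokinase then commits it to glycolysis, which ends in pyruvate and lactate, while the pentose phosphate branch makes NADPH for fatty acid synthesis and glycogen synthase stores glucose units. Several steps have alternative isoenzymes with different tissue distribution and regulation, so both the level of each gene and the balance within isoenzyme pairs are given.

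Promoter sequences from RefSeq (mouse build GRCm38.p6) were found for 34 of the 35 genes. The hypoxia-response core ACGTG, searched on both strands from 250 bases before to 50 bases after each start, occurred in at least 1 promoter of 18 of these 34 genes (52.9%), and in 21.78% of the 27025 genes in the same table. Counted by promoter, the core occurred in 21 of the 50 promoters of these genes, and in 19.62% of all 32851. The E-box CACGTG, which contains that core, occurred in 4 genes (Pfkm, Pfkfb3, Ldha and Slc16a1), or 11.8%, against 8.09%. By promoter, the E-box occurred in 4 of the 50, against 7.15% of all. The cAMP element TGACGTCA occurred in Ldha alone (2.9% of the 34, against 2.03%). The CEBP-ATF letters TGATGNAA and the DR1 repeat read by PPAR factors occurred in none of the 34 (4.51% and 0.05% of all genes). These matches are descriptions of the letters, not binding sites. The 250 bases before the start are shown for Hk2 and Pygl, with large differences between the 2 temperatures, and for Pfkp, whose level and isoform share did not overlap between genotypes at either temperature. They lie on the minus strand at chr6:82774455-82774704, chr12:70227684-70227933 and chr13:6648772-6649021, and are printed 5′ to 3′ with ACGTG on either strand (CACGT on the other) in capitals.
Hk2: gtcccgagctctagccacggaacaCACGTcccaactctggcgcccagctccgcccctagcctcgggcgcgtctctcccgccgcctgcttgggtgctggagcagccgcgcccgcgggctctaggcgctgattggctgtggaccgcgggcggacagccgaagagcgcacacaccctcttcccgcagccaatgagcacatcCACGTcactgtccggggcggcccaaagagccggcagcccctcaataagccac
Pygl: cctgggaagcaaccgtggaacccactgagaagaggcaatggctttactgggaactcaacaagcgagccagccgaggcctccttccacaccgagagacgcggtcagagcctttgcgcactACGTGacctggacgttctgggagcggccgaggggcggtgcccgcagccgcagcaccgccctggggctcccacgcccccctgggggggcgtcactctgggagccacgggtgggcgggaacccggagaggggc
Pfkp: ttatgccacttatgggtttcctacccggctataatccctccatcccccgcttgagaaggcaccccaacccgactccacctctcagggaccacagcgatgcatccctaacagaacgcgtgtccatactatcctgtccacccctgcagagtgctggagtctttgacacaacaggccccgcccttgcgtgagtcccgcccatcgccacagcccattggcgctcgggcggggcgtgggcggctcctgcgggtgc
The Hk2 window held 2 matches, the Pygl window 1 and the Pfkp window 0. Among the listed genes higher at 22 °C in both genotypes, Hk2, Pygl, Ldha and Gapdh had the core in a promoter. Pfkp, Eno1, Pgd, Tkt, Taldo1 and Gbe1, also higher in both, had it in none. Of those lower in both, Slc2a1 and Aldoc had it and Pgls did not. Any link between the core and expression was not tested.

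Values were deposited as FPKM (fragments per kilobase of gene, relative to the mapped total of the library) and were rescaled here with 1 factor per library. The factors were 0.778 to 0.973 in controls and 1.02 to 1.25 in knockouts. Genes encoded by mitochondrial DNA held 21.8% to 28.5% of all FPKM in controls and 2.04% to 5.34% in knockouts. On FPKM as deposited, the median of all genes tested moved up in knockouts by 0.24 at 22 °C and 0.31 at 30 °C on the log2 scale. Lrpprc itself read 24.6 to 60.6 scaled FPKM in the controls and 9.05 to 11.3 in the knockouts at 22 °C, and 29.5 to 31.9 and 4.75 to 8.09 at 30 °C, so every knockout library was below every control. Depth was 15.9 to 21.3 M (mega) fragments per library. Xist averaged 11.9 and 13.2 scaled FPKM in the 2 groups at 30 °C and at most 0.00492 in those at 22 °C, and the Y-linked Ddx3y averaged 21.7 and 20.3 at 22 °C and at most 0.0118 at 30 °C, so housing temperature and sex cannot be told apart. Each library carries its own animal identifier, and the labels pair no animals. The identifier begins with R for 2 of the 4 controls at 22 °C (replicates 3 and 4) and with E for the rest.

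The list spanned a wide range of expression. Aldolase A (Aldoa) was the most abundant member, with a mean of 2575 scaled FPKM over the 14 libraries, which ranked 13 in the whole table. Gapdh (1807), the enolase Eno1 (1356), pyruvate kinase Pkm (1049) and transketolase Tkt (849) followed. FPKM is per length, so these levels can be compared between genes. The insulin-responsive transporter Slc2a4 averaged 167 scaled FPKM and Slc2a1 averaged 5.28. The lowest members were the aldolase Aldoc (2.43) and the lactate exporter Slc16a3 (1.97). All 35 genes passed the filter of 1 FPKM in at least 3 libraries and were tested among 13079 genes.

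At 22 °C, few of the listed genes differed between knockouts and controls once the libraries were rescaled. Pfkfb1, an isoform of the bifunctional enzyme that makes and removes the phosphofructokinase activator fructose 2,6-bisphosphate, was the 1 of 31 genes that passed, and it was lower. Across the whole table, 1.71% of genes passed the same test (limma, Benjamini-Hochberg adjusted p below 0.05), 0.818% higher and 0.887% lower, and 1 gene is 3.23% of the list. The median log2 fold change of the 31 genes was 0.15, with 21 above 0 and 10 below, and that of all genes was 0.01. The list median was 0.03 without control 4, 0.09 without knockout 4 and 0.06 without both controls with R identifiers. Pfkfb1 read 28.1, 23.4, 19.5 and 20.9 scaled FPKM in the controls and 10.4, 16.7, 14.5 and 15.5 in the knockouts. Every knockout was below every control, and the log2 fold change was -0.66 ± 0.15 (SE, adjusted p = 0.0408); errors of log2 fold changes are SE throughout. The call held in 8 of 13 other settings, but in only 1 of the 8 fits that each leave out 1 animal, the one without control 3; each of the other 7 called none of the 31 genes. Apex2 overlaps Pfkfb1 on the opposite strand, was expressed at 2.37 FPKM against 17.4 and did not pass (log2 fold change -0.26 ± 0.13, adjusted p = 0.377). Whether counting used strand is not stated.

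The platelet phosphofructokinase Pfkp came next. It read 34.1, 31.5, 26.9 and 17.2 scaled FPKM in controls and 69.7, 44.3, 42.02 and 47.3 in knockouts, so all 4 knockouts lay above all 4 controls. Its log2 fold change was 0.88 ± 0.21 (SE, adjusted p = 0.0535), just outside the threshold. It passed in 7 of the 13 other settings tried. Pitrm1 overlaps it on the opposite strand at 18.1 FPKM against 31.2 for Pfkp, and its own log2 fold change was 0.33 ± 0.15 (SE, adjusted p = 0.312). The brain aldolase Aldoc also did not overlap between groups, at 0.585, 0.904, 0.538 and 0.493 scaled FPKM in controls and 2.13, 2.98, 0.940 and 1.11 in knockouts, with knockouts 1 and 2 the highest (log2 fold change 0.72 ± 0.25, adjusted p = 0.184). Of the 31 genes, only Pfkp and Aldoc were higher without overlap, and only Pfkfb1 was lower without overlap, against 4.94% and 3.88% of all genes. The liver phosphofructokinase Pfkl read 281, 276, 235 and 146 in controls and 361, 271, 300.0 and 323 in knockouts. The groups overlapped, with control 4 the lowest of all (log2 fold change 0.46 ± 0.19, adjusted p = 0.27). The monocarboxylate transporter Slc16a1, which carries lactate and ketone bodies, had a log2 fold change of 0.76 ± 0.24 (SE, adjusted p = 0.143), and its groups overlapped as well.

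This comparison depended on the rescaling. On the FPKM as deposited, 12 of the 31 genes were higher in knockouts and none was lower, while 24.2% of all genes were called higher and 0.619% lower. These 12 were Slc2a4, Hk1, Gpi1, Pfkl, Pfkp, Aldoc, Pgk1, Pkm, Slc16a1, G6pdx, Pgd and Rpia. The list median was then 0.44, beside an all-gene median of 0.24. Slc16a1 had the second largest deposited change of these, 1.05, after Pfkp at 1.16. Pfkfb1 had a deposited change of -0.38 and did not pass.

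At 30 °C the knockouts showed 6 changes among the 31 genes, 2 higher and 4 lower. That is 19.4% of the list, beside 12.9% of all genes (7.39% higher and 5.55% lower), and nothing particular to the list is read from it. The transporter Slc2a1 and the aldolase Aldoc rose. Pfkfb1, phosphoglycerate kinase Pgk1, lactate dehydrogenase subunit Ldhb and glycogen synthase Gys1 fell. The median log2 fold change of the list was -0.27, with 12 genes above 0 and 19 below, against 0.02 for all genes. It was -0.15 without control 2 and -0.16 without knockout 1. On the deposited FPKM the list median was 0.08 (all genes 0.31), and 4 genes were higher (Slc2a1, Aldoc, Pfkp and Pgd; all genes 32.7%) and 1 lower (Pfkfb1; all genes 2.22%).

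Slc2a1, the insulin-independent glucose transporter, read 5.36, 6.04 and 5.74 scaled FPKM in controls and 11.01, 6.75 and 11.1 in knockouts. All 3 knockouts were above the controls, knockout 2 by the least, and the log2 fold change was 0.63 ± 0.17 (SE, adjusted p = 0.0268). Slc2a4, its insulin-responsive counterpart, had the lower mean in knockouts and did not pass. It read 162, 195 and 152 in controls and 86.4, 150.4 and 121 in knockouts, with no overlap and a log2 fold change of -0.53 ± 0.22 (SE, adjusted p = 0.142). At 22 °C the same 2 genes had read 3.44, 3.39, 3.73 and 3.30 (Slc2a1) and 200.2, 160.3, 194 and 114 (Slc2a4) in controls. In knockouts at 22 °C Slc2a1 read 3.97, 4.27, 3.20 and 2.70 and Slc2a4 202, 173, 215 and 218, and both genes overlapped between genotypes.

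In the middle of the pathway, Pfkfb1 read 23.5, 24.5 and 19.7 scaled FPKM in controls and 9.88, 11.3 and 11.5 in knockouts. The knockout mean was the lowest of the 4 groups, at 10.9 ± 0.892 against 22.6 ± 2.52 (SD, n = 3 each), and the log2 fold change was -0.98 ± 0.17 (SE, adjusted p = 0.0033). This call held in all 6 fits that leave out 1 animal and in all 12 other settings. Aldoc read 1.92, 2.19 and 2.39 in controls and 3.29, 8.98 and 5.55 in knockouts, a log2 fold change of 1.05 ± 0.29 (SE, adjusted p = 0.0313), with knockout 2 the highest and knockout 1 nearest to the controls. Pgk1, which makes ATP in glycolysis, read 267, 313 and 266 in controls and 164, 218 and 198 in knockouts, without overlap (log2 fold change -0.55 ± 0.16, adjusted p = 0.0398). The same gene was above 0 in log2 fold change at 22 °C (0.20, not passing), with 438, 361, 379 and 279.7 in controls and 452, 375, 401 and 431 in knockouts. Ldhb, the lactate dehydrogenase subunit typical of oxidative tissue, read 476, 564 and 510.2 in controls and 261, 377 and 343 in knockouts (log2 fold change -0.67 ± 0.16, adjusted p = 0.0176), and all 3 knockouts lay below all 3 controls. At 22 °C its values were 533, 489, 412 and 419 in controls and 501, 362, 395 and 392 in knockouts, which overlapped.

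Of the glycogen genes, Gys1 read 89.4, 93.6 and 77.5 scaled FPKM in controls and 50.5, 56.1 and 57.02 in knockouts, with no overlap and a log2 fold change of -0.66 ± 0.16 (SE, adjusted p = 0.0164). At 22 °C Gys1 read 92.3, 93.02, 92.8 and 59.1 in controls and 82.1, 72.6, 75.3 and 83.8 in knockouts, and control 4 was the lowest of the 8. Ruvbl2 overlaps Gys1 on the opposite strand (28.0 FPKM against 76.2) and had a log2 fold change of -0.18 ± 0.15 (SE, adjusted p = 0.502) at 30 °C. The liver glycogen phosphorylase Pygl read 88.2, 109.8 and 87.2 in controls and 44.8, 72.2 and 50.6 in knockouts. The groups did not overlap, but the log2 fold change of -0.78 ± 0.27 (SE, adjusted p = 0.0795) did not pass. In all, 4 of the 31 genes were higher without overlap (Slc2a1, Pfkp, Aldoc and Pgd) and 8 lower (Slc2a4, Pfkfb1, Pgk1, Ldhb, Pgls, Taldo1, Gys1 and Pygl), against 19.0% and 17.2% of all genes. Pfkp read 12.3, 14.1 and 16.6 in controls and 20.1, 23.6 and 28.7 in knockouts (log2 fold change 0.71 ± 0.24, adjusted p = 0.0702), and the overlapping Pitrm1 had a log2 fold change of 0.07 ± 0.18 (SE, adjusted p = 0.844). Phosphogluconate dehydrogenase Pgd, which makes NADPH, had a log2 fold change of 0.77 ± 0.26 (SE, adjusted p = 0.0724), from 43.04 ± 9.15 to 73.3 ± 8.13 scaled FPKM (SD, n = 3 each).

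Calls at 30 °C other than Pfkfb1 depended on single animals, and some also on the scaling or on other settings. Pgk1 and Ldhb were not called on FPKM as deposited, after quantile normalization or with libraries scaled to an equal nuclear total. Gys1 was not called on FPKM as deposited. Aldoc was not called with a pseudocount of 0.1 (11.6% of all genes called), and neither Aldoc nor Pgk1 without the filter (6.57%). With the compared groups alone, Slc2a1, Aldoc, Ldhb and Pgk1 were not called, while Pfkp and Pgd were (9.63% of all genes). Quantile normalization and an equal nuclear total each gave 4 genes higher and 2 lower, with 13.9% and 20.1% of all genes called. Of the 6 fits that each leave out 1 mouse, Ldhb was called in 4, Gys1 in 3, and Slc2a1, Aldoc and Pgk1 in 1 each. The number of the 31 genes called was 2 without control 1, 1 without control 2 (Pfkfb1), 4 without control 3, 2 without knockout 1, 6 without knockout 2 and 3 without knockout 3. The 6 without knockout 2 include Pygl and lack Aldoc, so none of these fits called all 6 genes named above. The share of all genes called, 12.9% with every mouse, was 6.99%, 6.1%, 9.13%, 5.94%, 15.2% and 6.53% in the same order.

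**Figure D1:**
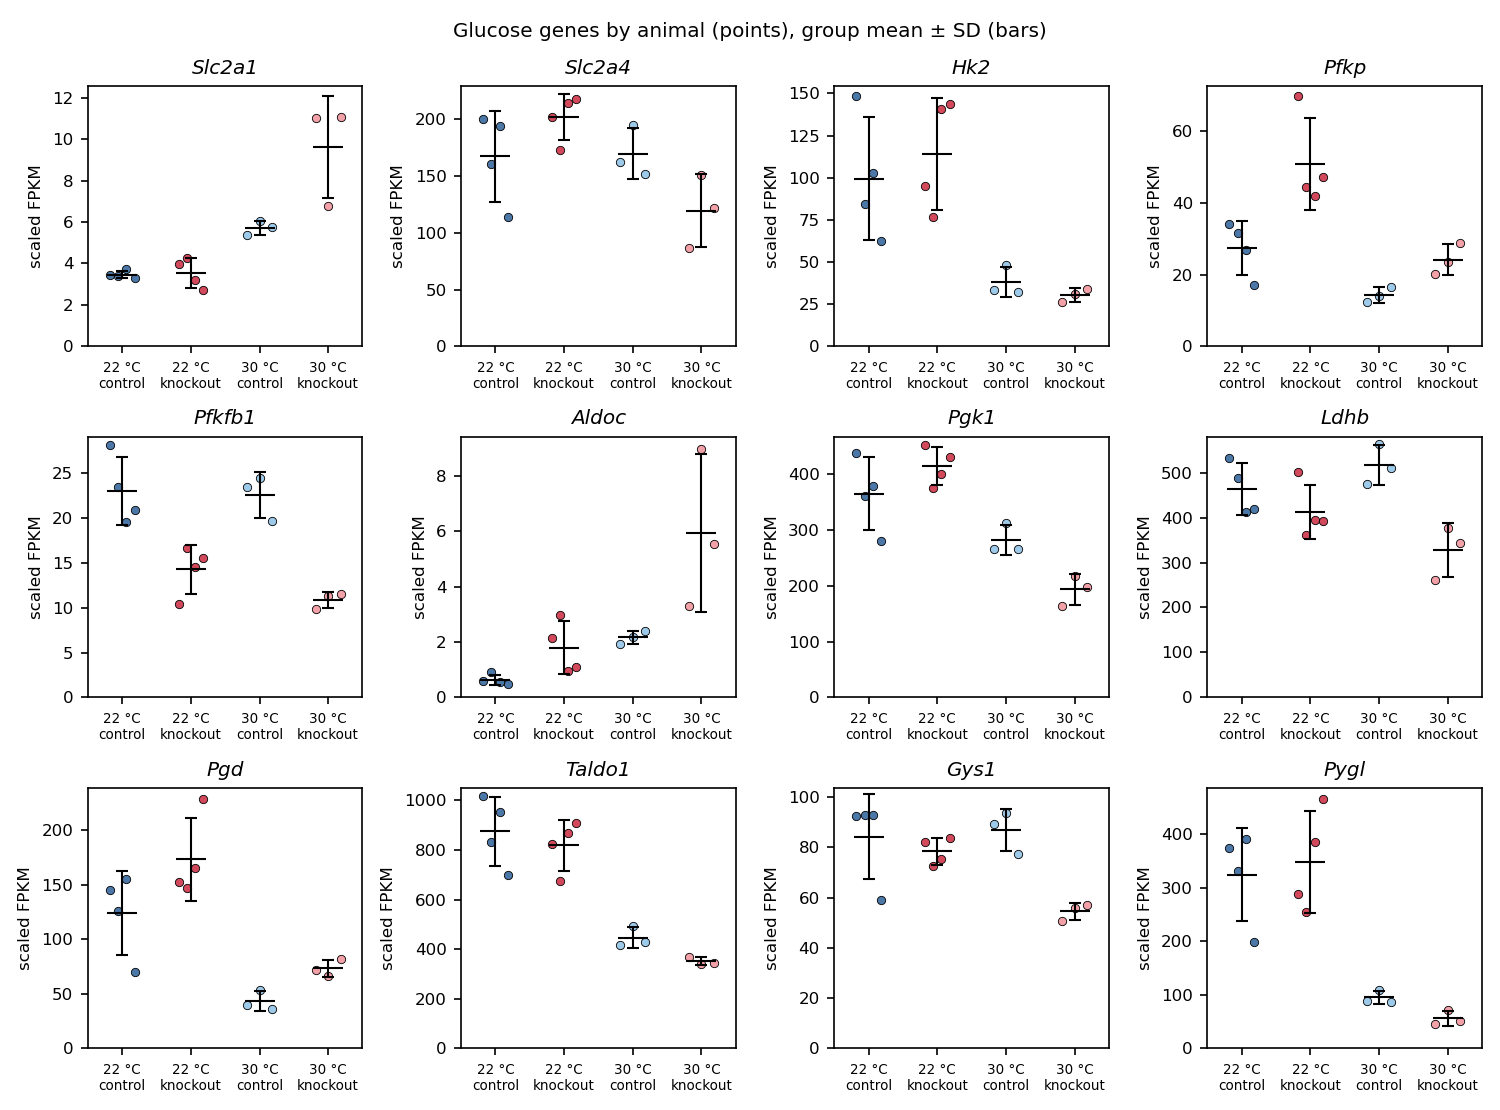
Scaled FPKM of 12 of the genes in each mouse (points) with the group mean and SD (bars), linear axes from 0. Pfkfb1 was lower in knockouts at both temperatures and Pfkp higher without overlap, while Hk2, Taldo1 and Pygl were high in both 22 °C groups.

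**Figure D2:**
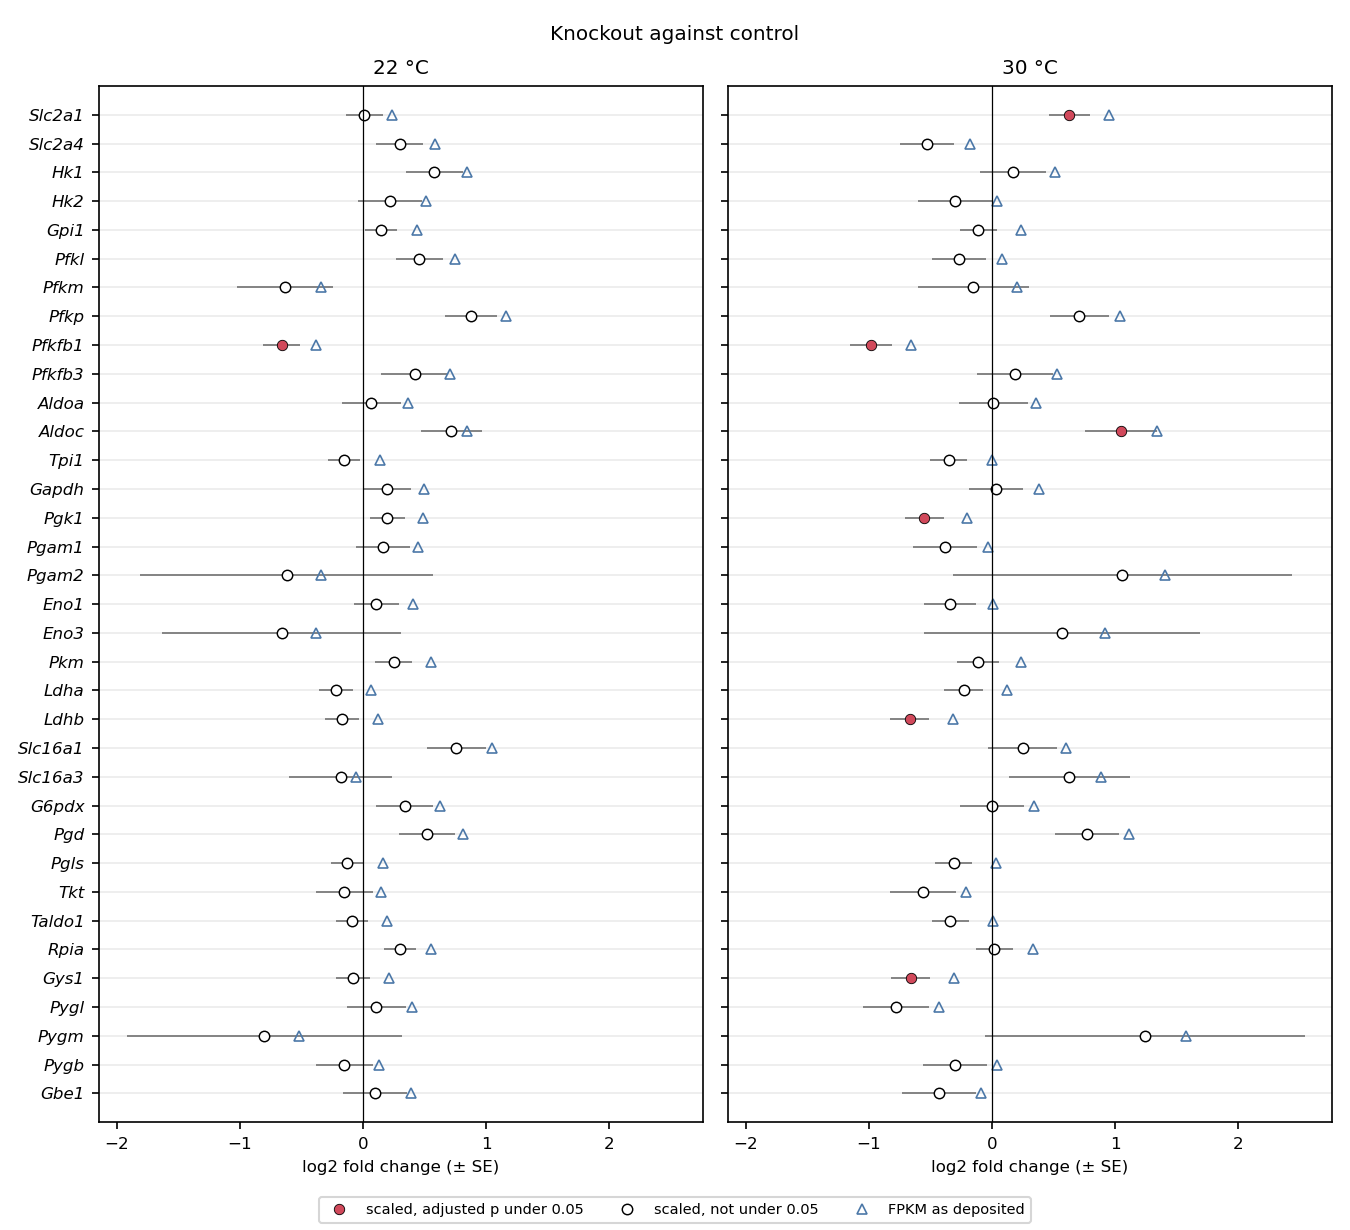
Log2 fold change of knockout against control for the 35 genes at 22 °C and 30 °C; circles are rescaled values with their SE, filled where the adjusted p is below 0.05, and triangles are FPKM as deposited. The triangles lie to the right of the circles, by about the all-gene shift of 0.24 at 22 °C and 0.31 at 30 °C, and the 4 muscle isoforms have the widest errors.

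Markers of other cells moved with genotype at 30 °C. Of 12 macrophage markers, 11 were higher in knockouts (summed scaled FPKM of 654 to 2161, against 111 to 433 in controls), and all 5 fibroblast markers were higher (375 to 735, against 197 to 232). Of 6 adipocyte markers 3 were lower (Adipoq, Fabp4 and Cidec; sums of 5123 to 6971, against 9744 to 11720), and of 8 brown adipocyte markers 4 were lower (Ucp1, Cidea, Cox8b and Cox7a1; 2618 to 3810, against 5778 to 7815). Endothelial markers had 1 call of 6 (Cldn5, higher), and red blood cell and lymphocyte markers had none. The endothelial sums of 642 to 701, against 288 to 297, followed Cldn5, which averaged 101 in controls and 515 in knockouts. Pecam1, Cdh5, Kdr, Tek and Emcn had log2 fold changes of -0.20 to -0.49, none passing, and the endothelial list median was -0.31. No marker of these lists was at 0 in every library of a group, except 1 muscle marker in the knockouts at 22 °C. At 22 °C no macrophage or fibroblast marker passed (macrophage sums of 88.6 to 216 in knockouts and 55.0 to 76.5 in controls), Adipoq and Cidec were lower and Ppargc1a was higher. In these bulk samples, fewer cells of a type and less RNA per cell cannot be told apart, and the part of cell composition in the glucose gene changes was not tested.

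The balance within an isoenzyme pair is read inside 1 library and does not depend on rescaling. For 12 pairs the share of the first gene in the sum of FPKM was compared between genotypes with an exact two-sided permutation test. Pfkp was 10.8%, 10.2%, 10.3% and 10.6% of the sum of Pfkp and Pfkl in controls at 22 °C and 16.2%, 14.1%, 12.3% and 12.8% in knockouts. The group means were 10.5% ± 0.262 and 13.8% ± 1.74 (SD, n = 4 each), every knockout was above every control, and the exact permutation p was 0.0286, the smallest that 4 against 4 allows. At 30 °C the same share was 7.83%, 7.23% and 9.62% in controls and 14.97%, 12.7% and 18.6% in knockouts. Again the groups did not overlap, with means of 8.23% ± 1.24 and 15.4% ± 2.97 (SD, n = 3 each), and the exact p of 0.1 is the smallest that 3 against 3 allows. Pfkl itself read 145, 181 and 156 scaled FPKM in controls and 114, 162 and 125 in knockouts at 30 °C, and the groups overlapped (log2 fold change -0.27 ± 0.22, adjusted p = 0.484).

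Pfkfb3, the isoform with the highest kinase to phosphatase ratio, also had a higher mean share of its pair with Pfkfb1 in knockouts. It was 86.4%, 85.2%, 91.5% and 81.8% of the sum in controls and 93.3%, 92.7%, 94.3% and 93.1% in knockouts at 22 °C, without overlap (exact permutation p = 0.0286). At 30 °C it was 77.1%, 81.6% and 81.8% in controls and 91.6%, 93.1% and 85.7% in knockouts (exact permutation p = 0.1). Pfkfb3 itself overlapped between genotypes at both temperatures. It read 178, 135, 211 and 94.2 scaled FPKM in controls and 144, 214, 239.8 and 210.2 in knockouts at 22 °C, and 78.95, 109 and 88.6 in controls and 108, 151 and 69.1 in knockouts at 30 °C. Adjusted over the 12 pairs, the exact permutation p of both shares was 0.171 at 22 °C and 0.3 at 30 °C, so neither passed a corrected threshold. No pair could have passed at 30 °C.

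Among the other pairs, Slc2a4 made up 96.8%, 96.99% and 96.4% of Slc2a4 and Slc2a1 in controls at 30 °C and 88.7%, 95.7% and 91.6% in knockouts, without overlap (exact permutation p = 0.1). At 22 °C the means were 97.9% ± 0.495 in controls and 98.2% ± 0.524 in knockouts (SD, n = 4 each), and the groups overlapped. Pygl made up 60.02%, 69.2% and 60.5% of Pygl and the brain isoform Pygb in controls at 30 °C and 55.8%, 57.3% and 53.01% in knockouts, also without overlap (exact permutation p = 0.1). Pygb read 58.8, 48.8 and 56.8 scaled FPKM in controls and 35.5, 53.8 and 44.8 in knockouts at 30 °C, and 41.4, 50.7, 46.5 and 24.2 in controls and 23.99, 37.1, 40.8 and 42.1 in knockouts at 22 °C. Neither the Hk2 share of Hk2 and Hk1 nor the Ldhb share of Ldhb and Ldha separated the genotypes at either temperature. The other 6 pairs overlapped between genotypes at both temperatures.

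**Figure D3:**
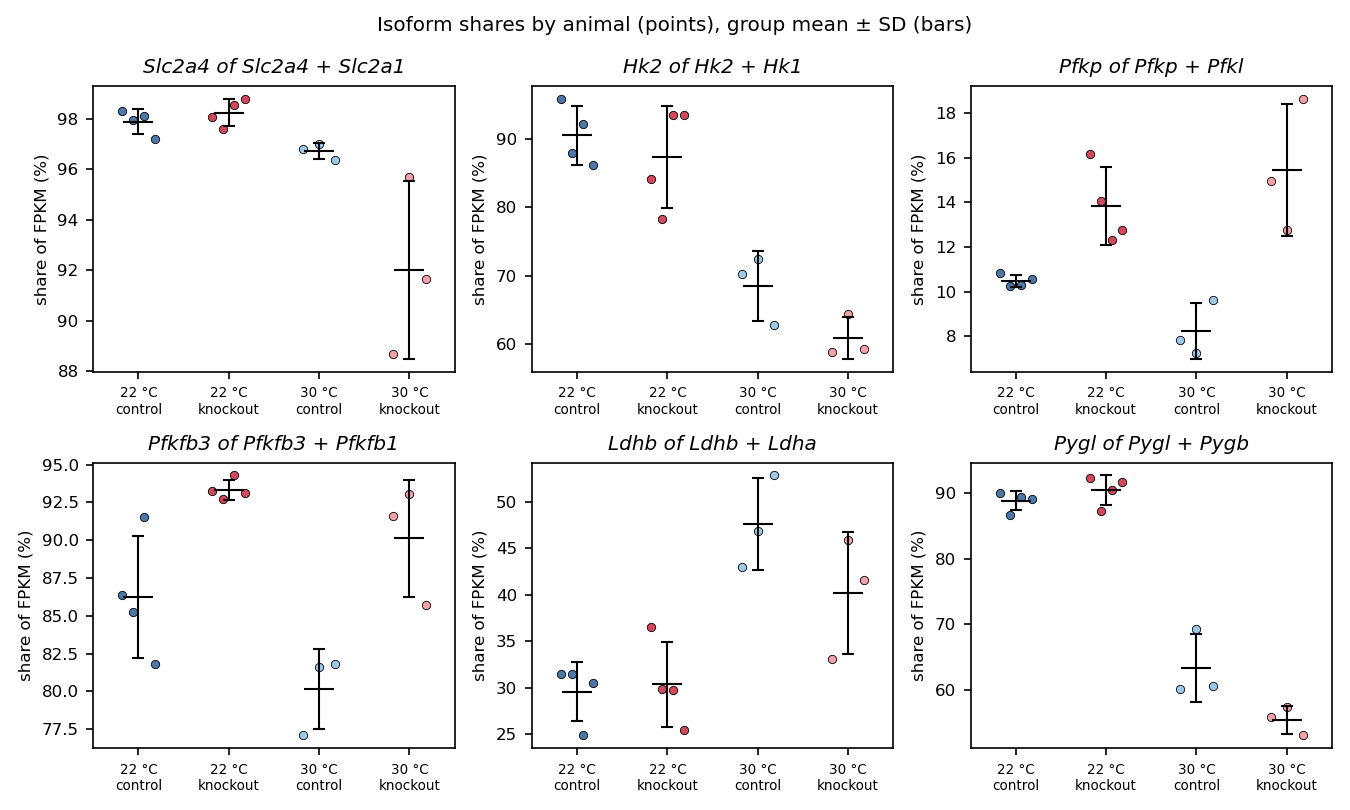
Share of the first gene in the summed FPKM of an isoenzyme pair, in percent, for each mouse (points) with the group mean and SD (bars); the axes do not start at 0. Pfkp of Pfkp and Pfkl averaged 10.5% and 13.8% in controls and knockouts at 22 °C and 8.23% and 15.4% at 30 °C.

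Whether the knockout effect itself differed between the temperatures, which also differ in sex, was tested as an interaction. No gene of the 31 passed, and none of all 13079 (0.0%; limma), while 1607 genes (12.3%) had an unadjusted p below 0.05. Limma voom on recovered reads also called none, and sample weights called 180 genes (1.38%), none of them among the 31. For the 31 genes the difference, the effect at 22 °C minus that at 30 °C, was above 0 in 27 and below 0 in 4. Its median was 0.33, beside an all-gene median of -0.002. With 1 animal left out the list median was 0.23 to 0.41, and 24 to 27 genes were above 0. The median difference was 0.84 for brown adipocyte, 0.54 for adipocyte and 0.29 for endothelial markers. It was -1.4 for macrophage, -0.77 for fibroblast, -0.3 for lymphocyte and -2.32 for muscle markers, and -0.0 for red blood cell markers. The part of cell composition in the difference was not tested. The smallest adjusted p-values among the 31 were those of Pgk1 at 0.75 ± 0.21 (SE, adjusted p = 0.228), Slc2a1 at -0.62 ± 0.22 (SE, adjusted p = 0.292) and Slc2a4 at 0.83 ± 0.30 (SE, adjusted p = 0.292). An effect that passed at 30 °C and not at 22 °C is therefore not shown to differ between them.

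More of these genes passed between the 2 housing temperatures, which also differ in sex. In controls 14 of the 31 genes (45.2%) passed, 10 higher at 22 °C and 4 lower, against 38.3% of all genes (20.2% higher and 18.1% lower). In knockouts 22 (71.0%) passed, 18 higher and 4 lower, against 52.2% of all genes (27.4% and 24.8%). The list medians were 0.34 in controls and 0.61 in knockouts, with an all-gene median of 0.03 in knockouts and slightly below 0 in controls. The list median in controls was 0.22 without control 3 at 22 °C. Control and knockout comparisons use different animals. On the deposited FPKM the counts were 9 higher and 6 lower in controls (all genes 13.3% and 24.5%) and 15 higher and 4 lower in knockouts (17.5% and 33.7%).

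Markers of other cells differed between the temperatures too. Macrophage markers were lower at 22 °C in 8 of 12 in controls (summed scaled FPKM of 55.0 to 76.5, against 111 to 433 at 30 °C) and in 11 of 12 in knockouts (88.6 to 216, against 654 to 2161). Of 5 fibroblast markers, 1 was lower at 22 °C in controls (143 to 193, against 197 to 232) and 5 in knockouts (134 to 255, against 375 to 735). Brown adipocyte markers were higher at 22 °C in 6 of 8 in controls (8200 to 12408, against 5778 to 7815) and in 8 of 8 in knockouts (7136 to 11750, against 2618 to 3810). Of 6 adipocyte markers, Fabp4 was higher and Plin1 and Lep lower in controls, and Fabp4, Cidec and Pparg were higher in knockouts. The endothelial marker Cldn5 was lower in both genotypes, and of 4 lymphocyte markers tested 3 were lower in controls and 4 in knockouts, while no red blood cell or muscle marker passed. The part of cell composition in the temperature differences of the glucose genes was not tested.

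The largest difference was in Pygl, which mobilises glycogen. It read 374, 331, 391 and 199 scaled FPKM at 22 °C and 88.2, 109.8 and 87.2 at 30 °C in controls, a log2 fold change of 1.72 ± 0.26 (SE, adjusted p = 0.000644). In knockouts it read 288, 254, 386 and 465 at 22 °C and 44.8, 72.2 and 50.6 at 30 °C, and the log2 fold change was 2.61 ± 0.26 (SE, adjusted p = 2.88e-05). The temperatures did not overlap in either genotype. As a share of Pygl and Pygb, Pygl was 88.8% ± 1.45 in controls at 22 °C and 63.3% ± 5.16 at 30 °C (exact permutation p = 0.0571, the smallest that 4 against 3 allows). The branching enzyme Gbe1, which shapes glycogen, was also higher at 22 °C, by 1.25 ± 0.28 (SE, adjusted p = 0.00497) in controls and 1.77 ± 0.28 (SE, adjusted p = 0.000352) in knockouts.

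Hexokinase 2 (Hk2), the insulin-regulated isoform, read 148, 84.2, 103 and 62.4 scaled FPKM at 22 °C and 33.3, 48.3 and 32.3 at 30 °C in controls (log2 fold change 1.32 ± 0.28, adjusted p = 0.00337). In knockouts it read 95.4, 76.7, 141 and 144 at 22 °C and 26.1, 31.03 and 34.0 at 30 °C (log2 fold change 1.83 ± 0.28, adjusted p = 0.000258). All mice at 22 °C were above all mice at 30 °C. The isoform Hk1 went the other way in controls, with 6.52, 11.5, 8.84 and 10.01 at 22 °C and 14.1, 18.4 and 19.2 at 30 °C (log2 fold change -0.85 ± 0.25, adjusted p = 0.0182). In knockouts Hk1 read 18.1, 21.3, 9.85 and 10.2 at 22 °C and 18.2, 17.2 and 23.3 at 30 °C and did not pass (log2 fold change -0.44 ± 0.25, adjusted p = 0.159), with knockouts 1 and 2 at the level of the 30 °C mice. The Hk2 share of the pair was 90.5% ± 4.31 in controls at 22 °C and 68.5% ± 5.09 at 30 °C, without overlap (exact permutation p = 0.0571). In knockouts it was 87.3% ± 7.47 and 60.9% ± 3.02, also without overlap (exact permutation p = 0.0571).

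Of the 2 lactate dehydrogenase subunits, Ldha passed and Ldhb did not. Ldha, the subunit typical of glycolytic tissue, read 1159, 1064, 1246 and 955 scaled FPKM at 22 °C and 629.9, 641 and 456 at 30 °C in controls (log2 fold change 0.95 ± 0.15, adjusted p = 0.000946). In knockouts Ldha read 872, 850.1, 931 and 1151 at 22 °C and 528, 445 and 481 at 30 °C (log2 fold change 0.96 ± 0.15, adjusted p = 0.000348), and in each genotype the temperatures did not overlap. The log2 fold change of Ldhb was -0.16 ± 0.15 (SE, adjusted p = 0.427) in controls and 0.34 ± 0.15 (SE, adjusted p = 0.0801) in knockouts. Ldhb was 31.5%, 31.5%, 24.9% and 30.5% of the pair in controls at 22 °C and 43.02%, 46.8% and 52.8% at 30 °C, without overlap. In knockouts the shares were 36.5%, 29.8%, 29.8% and 25.4% at 22 °C and 33.1%, 45.9% and 41.6% at 30 °C, and 1 mouse of the 30 °C group lay inside the range of the 22 °C group.

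Of the 6 pentose phosphate genes, 3 were higher at 22 °C in both genotypes, while 20.2% of all genes were called higher in controls and 27.4% in knockouts. Pgd was higher by 1.46 ± 0.25 (SE, adjusted p = 0.00117) in controls and 1.21 ± 0.25 (SE, adjusted p = 0.00151) in knockouts, Tkt by 1.17 ± 0.25 (SE, adjusted p = 0.00357) and 1.58 ± 0.25 (SE, adjusted p = 0.000324), and transaldolase Taldo1 by 0.96 ± 0.14 (SE, adjusted p = 0.000665) and 1.21 ± 0.14 (SE, adjusted p = 7.47e-05). The entry enzyme of the branch, the X-linked G6pdx, had a log2 fold change of 0.95 ± 0.25 (SE, adjusted p = 0.00622) in knockouts and 0.61 ± 0.25 (SE, adjusted p = 0.0657) in controls. The difference between those changes was 0.34 ± 0.35 (SE, adjusted p = 0.732) and did not pass. Pgls, the lactonase, was lower at 22 °C, with log2 fold changes of -0.63 ± 0.14 (SE, adjusted p = 0.00424) in controls and -0.45 ± 0.14 (SE, adjusted p = 0.0159) in knockouts, and Rpia did not pass in either. In the glycolytic trunk, Eno1 was higher by 0.88 ± 0.20 (SE, adjusted p = 0.00468) in controls and 1.33 ± 0.20 (SE, adjusted p = 0.000235) in knockouts, and Pfkp by 0.86 ± 0.23 (SE, adjusted p = 0.0103) and 1.03 ± 0.23 (SE, adjusted p = 0.00234). Gapdh was higher by 0.58 ± 0.21 (SE, adjusted p = 0.0414) and 0.74 ± 0.21 (SE, adjusted p = 0.00891). On deposited values the change of Gapdh in controls was 0.41 and did not pass. The genes that passed in knockouts alone were Slc2a4, Gpi1, Pfkl, Pfkfb3, Pgk1, Pkm, Slc16a3 (lower), G6pdx and Gys1, and Hk1 passed in controls alone. None of these 10 passed the test of the difference between genotypes. Of the 7 fits that each leave out 1 animal, the call held in 3 for Gapdh and 4 for Hk1 in controls, and in 4 for Pkm and 1 for Slc16a3 in knockouts. Slc2a1 and Aldoc were lower at 22 °C in both genotypes, Slc2a1 with log2 fold changes of -0.59 ± 0.16 (SE, adjusted p = 0.0118) in controls and -1.21 ± 0.16 (SE, adjusted p = 0.000114) in knockouts and Aldoc of -0.96 ± 0.27 (SE, adjusted p = 0.0146) and -1.29 ± 0.27 (SE, adjusted p = 0.00186). Of the 31 genes, 3 lie on the X chromosome (Pfkfb1, Pgk1 and G6pdx).

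**Figure D4:**
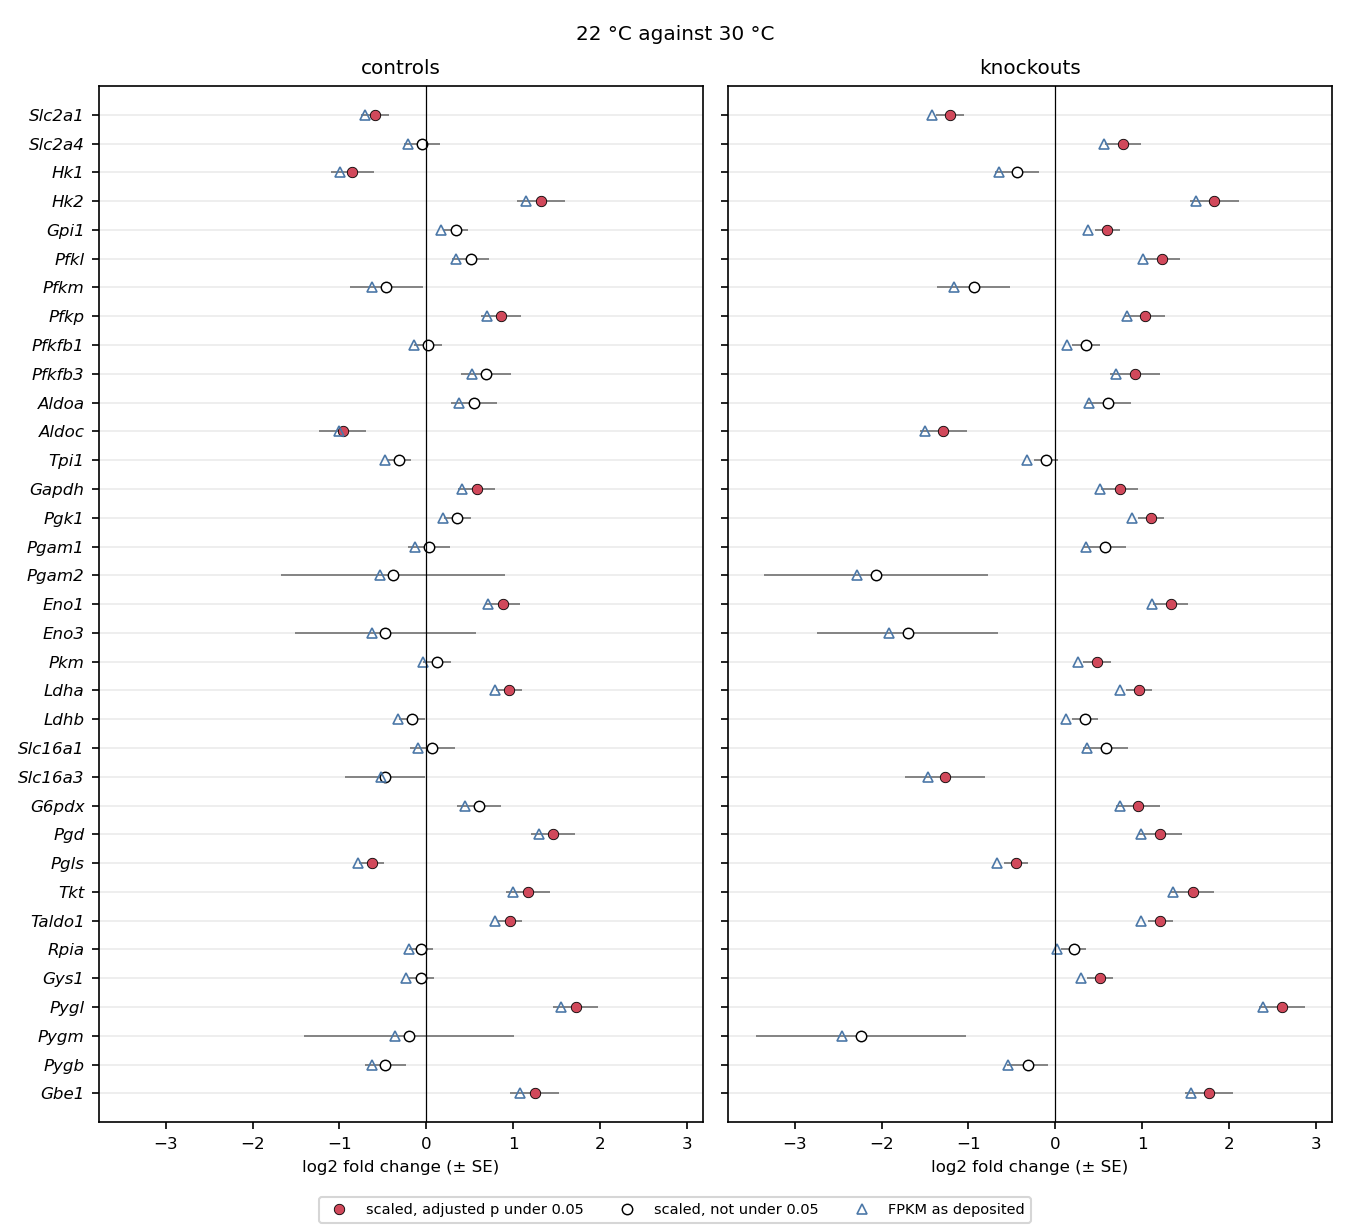
Log2 fold change of 22 °C against 30 °C for the 35 genes in controls and in knockouts; circles are rescaled values with their SE, filled where the adjusted p is below 0.05, and triangles are FPKM as deposited. Pygl lies farthest to the right in both panels, and Slc2a1, Aldoc and Pgls lie left of 0 in both.

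The 4 muscle isoforms varied with the muscle RNA of the libraries, Pfkm least closely, and passed in none of the 5 comparisons. The summed scaled FPKM of 14 skeletal muscle markers ran from 40.8 (control 3 at 30 °C) to 15531 (control 1 at 30 °C). Pgam2, the muscle phosphoglycerate mutase, read 15.7, 10.5, 182 and 106 scaled FPKM in controls and 18.8, 27.95, 31.03 and 35.6 in knockouts at 22 °C, and 328, 146 and 2.87 in controls and 205, 46.8 and 173 in knockouts at 30 °C. Control 3 at 30 °C was the lowest of all 14 and control 1 of that group the highest. The log2 fold change at 30 °C was 1.06 ± 1.38 (SE, adjusted p = 0.681), while the mean was lower in knockouts (141 against 159 scaled FPKM). Muscle phosphorylase Pygm read 337, 139.5 and 3.84 in controls at 30 °C and enolase Eno3 488, 219 and 14.6, in the same order as the markers. The muscle phosphofructokinase Pfkm read 249.9, 149.7 and 64.4, a narrower range.

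A score averaging the 13 of those markers that passed the filter was fitted beside the group means. Its slope passed for all 4 muscle isoforms, with values of 0.89 for Pgam2, 0.84 for Pygm, 0.71 for Eno3 and 0.27 for Pfkm (log2 per log2 unit of the score). Of the other 31 genes, 3 had a slope that passed, Aldoa (0.14), Gapdh (0.12) and Slc16a3 (0.28), which is 9.68% of them against 3.15% of all genes. Aldoa and Gapdh were lowest of all in control 3 at 30 °C, at 1275 and 902 scaled FPKM. With the muscle score as a covariate, the 22 °C knockout comparison called Pfkp (higher) and no longer Pfkfb1, with 1.51% of all genes called. The log2 fold change of Pfkfb1 was -0.65 with the covariate (limma adjusted p = 0.0518) and -0.66 without it, and its slope on the score was 0.01. At 30 °C the fit with the covariate called 7 of the 31 genes and 11.3% of all genes, with Pfkp higher and Tpi1 lower in addition and without Pgk1. The log2 fold change of Pgk1 was -0.52 with the covariate (limma adjusted p = 0.0657) and -0.55 without it.

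**Figure D5:**
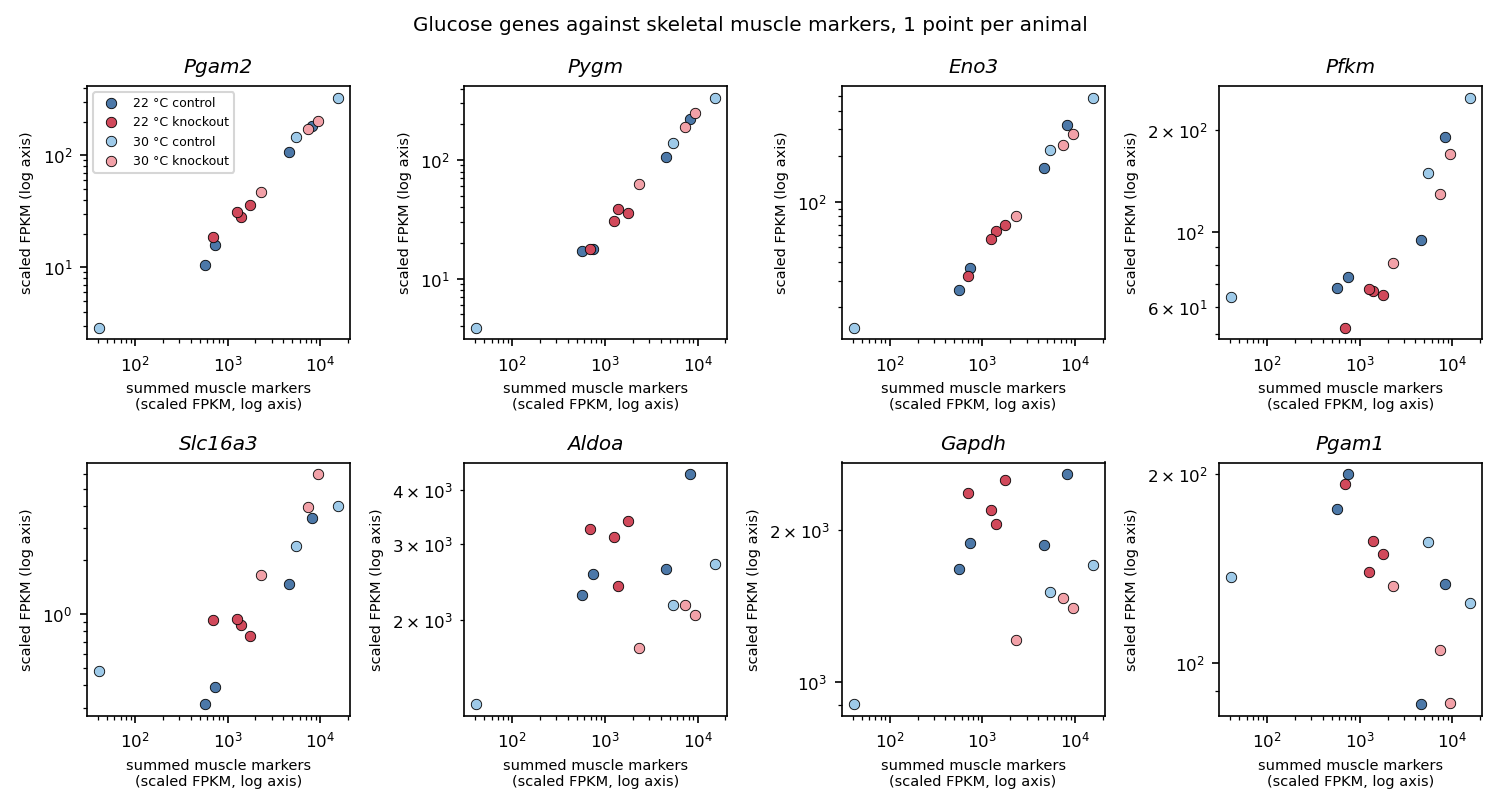
Scaled FPKM of 8 genes against the summed scaled FPKM of 14 muscle markers, 1 point per mouse, both axes logarithmic. Across the 14 mice, Pgam2, Pygm and Eno3 are higher where the markers are higher and Pfkm and Slc16a3 less steeply so; in the 22 °C knockouts Slc16a3 is lowest in the mouse with the most muscle RNA.

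A further 67 genes of the same pathways were listed beside the 35, of which 60 were tested. At 22 °C, 2 were higher in knockouts and 1 lower, beside 0.818% and 0.887% of all genes. Stbd1, which anchors glycogen to membranes, averaged 6.24 ± 1.66 scaled FPKM in controls and 23.9 ± 12.3 in knockouts (SD over 4 mice), a log2 fold change of 1.67 ± 0.33 (SE, adjusted p = 0.0263). The mitochondrial phosphoenolpyruvate carboxykinase Pck2 was higher (log2 fold change 1.08 ± 0.25, adjusted p = 0.0442), and the phosphorylase kinase subunit Phka2 lower (log2 fold change -0.35 ± 0.08, adjusted p = 0.0456). At 30 °C, 4 of the 60 were higher and 7 lower, beside 7.39% and 5.55% of all genes. Stbd1 was again higher, at 28.4 ± 10.9 against 9.05 ± 0.161 in controls (SD over 3 mice), by 1.48 ± 0.38 (SE, adjusted p = 0.0233), and Phka2 again lower (log2 fold change -0.31 ± 0.09, adjusted p = 0.0388). The other higher genes were the hexokinase Hk3 (log2 fold change 1.95 ± 0.53, adjusted p = 0.0279), the monocarboxylate transporter chaperone Emb (log2 fold change 1.11 ± 0.27, adjusted p = 0.0161) and the transporter Slc16a6 (log2 fold change 0.42 ± 0.13, adjusted p = 0.0499). Hk3 varied widely between mice, at 2.50 ± 2.65 scaled FPKM in controls and 13.55 ± 13.0 in knockouts (SD over 3 mice). The macrophage markers had a median log2 fold change of 2.26 in the same comparison, and which cells carried the Hk3 RNA was not tested.

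The lower genes at 30 °C came from several branches. The cytosolic glycerol 3-phosphate dehydrogenase Gpd1, which diverts glycolytic carbon toward glycerolipids, averaged 1642 ± 629.6 scaled FPKM in controls and 778 ± 253 in knockouts (SD over 3 mice), a log2 fold change of -1.06 ± 0.33 (SE, adjusted p = 0.0491). The D-lactate dehydrogenase Ldhd fell by 1.19 on the log2 scale (adjusted p = 0.00255), glycogen synthase 2 (Gys2) by 1.02 (adjusted p = 0.0281) and hexose 6-phosphate dehydrogenase (H6pd) by 0.91 (adjusted p = 0.0116). The bisphosphoglycerate mutase Bpgm fell by 0.66 (adjusted p = 0.0452), and Mlxipl, which encodes the glucose-responsive factor ChREBP, by 0.60 (adjusted p = 0.0284). Between the temperatures, 18 of the 60 were higher at 22 °C and 5 lower in controls, and 23 higher and 12 lower in knockouts. Of all genes, 20.2% were higher and 18.1% lower in controls, and 27.4% and 24.8% in knockouts. Of the glycogen genes in this list, 8 of 18 were higher at 22 °C in both controls and knockouts (all genes 20.2% and 27.4%), among them Gys2, by 1.41 ± 0.26 (SE, adjusted p = 0.00172) in controls and 2.0 ± 0.26 (SE, adjusted p = 0.000113) in knockouts.

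Some of these genes have rows in the table with a near-identical stretch (95% identity over 200 bases). Gapdh had 117 such rows, whose summed FPKM was 0.83% of its own, and Pgam1 had 2, at 5.3%. For Rpia the summed level of the rows with a matching stretch was above its own, so its values are uncertain. The pairs of overlapping genes on opposite strands named above, and G6pdx with Ikbkg (7.55 FPKM against 69.1), could share reads if counting ignored strand.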

How the data were processed

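RNA was measured in brown adipose tissue of 14 mice. The submitters deposited 1 table of FPKM per gene, and the authors' processing notes name the mouse build mm9; the aligner, annotation and strand setting are not given in the sources used here. Gene symbols, lengths and overlaps came from GENCODE M21. From the deposited FPKM, each library was divided by its median ratio to the geometric mean over 15432 nuclear genes above 0 in every library, and log2(scaled FPKM + 1) was tested with limma 3.58.1 (lmFit and eBayes with a trend, R 4.3.3) over all 14 samples with 1 mean per group. Fold changes are on that scale and understate changes of low genes. Genes with FPKM of at least 1 in at least 3 samples were kept, and the Benjamini-Hochberg adjustment ran over the 13079 genes tested. A gene was called at an adjusted p below 0.05. Depth was recovered from the FPKM steps of genes with 1 transcript, where 87.3% to 89.4% of low values came out whole within 0.02 reads. On those reads, the 18 pairs of replicates had chi-square values of 12.0 to 177 times their degrees of freedom, far above sampling noise. The fit was also run on simulated reads with known changes. Those reads held neither the mitochondrial nor the muscle differences between the libraries, so they do not test the scaling against them. The listed genes and lists were chosen with earlier results of these data known. Values of every sample are given for listed genes called between genotypes and for isoform shares discussed; further list genes are named where called between genotypes. Alternatives covered pseudocount, filter, scaling, estimation of the spread, a muscle score, reads recovered from FPKM and each animal left out.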

Additional observations from a re-analysis of the deposited data

Results flagged for a closer look

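Of 94 sets of 4 mice examined (a gene or a share in 1 group at 22 °C), 3 had 1 animal far from the other 3; chance gives about 1 in 20, or 4.7. All 3 were in controls at 22 °C. Aldoa was highest in control 3 (4354 scaled FPKM, others 2282 to 2630), the control with the most muscle marker RNA of that group. Gys1 was lowest in control 4 (59.1, others 92.3 to 93.0). The Ldhb share of Ldhb and Ldha was lowest in control 3 (24.9%, others 30.5% to 31.5%). Control 4 was the lowest of the 4 controls in 22 of the 31 genes and the highest in 1. Controls 3 and 4 carry R identifiers. Without both, the knockout comparison at 22 °C called 1 of the 31 genes, as with them, and its list median was 0.06 in place of 0.15. Of all genes, 2.48% were called in place of 1.71%. The temperature comparison in controls called 15 genes in place of 14, beside 47.0% of all genes in place of 38.3%. Aldoc and Gapdh were no longer called there, and Pfkl, G6pdx and Pgk1 were added.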

How the results depend on the processing

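No called gene changed direction under the alternatives run. At 22 °C the number of the 31 genes called between genotypes was 1 as reported (1.71% of all genes). It was 12 on FPKM as deposited (24.8% of all genes) and 3 with quantile normalization (1.4%). It was 2 each with a mean FPKM of at least 5 (3.2%), robust eBayes (1.74%) or sample weights (6.23%). It was 0 each with no filter (0.413%) or with the compared groups alone (0.505%). Leaving out 1 animal gave 0 to 1, with 0.483% to 1.9% of all genes called. The list median at 22 °C, 0.15 as reported, was 0.44 on deposited FPKM, 0.31 after quantile normalization, 0.28 with an equal nuclear total, 0.06 without the controls with R identifiers and 0.03 to 0.22 when 1 animal was left out. At 30 °C sample weights called 12 genes, with 27.5% of all genes called in place of 12.9%. Leaving out 1 animal gave 1 to 6 genes (5.94% to 15.2% of all genes), not always among the 6 reported. The list median at 30 °C, -0.27 as reported, was 0.08 on deposited FPKM, 0.0 after quantile normalization and -0.06 when libraries had an equal nuclear total. The median of 22 °C against 30 °C in controls, 0.34 as reported, was 0.17 on deposited FPKM and 0.22 to 0.37 when 1 animal was left out. That in knockouts, 0.61 as reported, was 0.39 on deposited FPKM and 0.46 with an equal nuclear total. The 2 isoform shares with an exact permutation p below 0.05 at 22 °C became 0 without the controls with R identifiers and 0 when any 1 animal was left out, since fewer animals cannot reach that threshold. No alternative varied the depth. No paired analysis was possible because the labels carry no shared replicate numbers.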
